A study of Mus musculus with 16 samples.

Results

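A set of 10 genes that make, move, sense or remove adenosine and AMP was followed in murine gingival fibroblasts (mGF) challenged with a saturated fatty acid, a cytokine or both. They were chosen for these roles in the purine pathway, with earlier results of these data known. The genes, Entpd1, Nt5e, Adora2b, Slc29a1, Adk, Ada, Ampd2, Ampd3, Pnp and Xdh, were taken by symbol from a deposited count table of 56941 genes, and 10 of 10 were among the 16306 genes with enough counts to test. Ampd3 rose in every treatment and Nt5e fell in every treatment, so that the RNA for AMP deamination gained on the RNA for extracellular AMP dephosphorylation. Transporter, receptor and downstream purine genes moved by smaller amounts, and Entpd1 and Ampd2 did not pass the test in any comparison.

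Bulk RNA was sequenced from 16 libraries, 4 for each of 4 conditions. The cells were primary fibroblasts grown out of gingival explants around the maxillary second molar of wild type C57Bl6 mice aged 3 to 6 months, kept in medium with 20% serum and used between passages 2 and 8. The control received BSA as the vehicle at 200 μM, the IL-1β condition received the vehicle and recombinant mouse IL-1β at 1 ng/mL, the palmitate condition received 200 μM of the BSA-palmitate complex, and the last condition received palmitate + IL-1β, each for 24 h. The sources used here do not say whether the 4 libraries of a condition came from separate cultures or animals, so p-values measure only the spread between these libraries, which may be technical. Libraries are named by condition and the number in their label, 1 to 16, which no 2 conditions share.

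Adenosine outside the cell is made stepwise from released ATP: Entpd1 (CD39) removes phosphates from ATP and ADP down to AMP, and Nt5e (CD73) turns AMP into adenosine, which acts on 4 receptors or is carried into the cell by equilibrative transporters such as Slc29a1 (ENT1). Inside, Adk returns adenosine to AMP, Ada deaminates it to inosine, and the AMP deaminases Ampd2 and Ampd3 turn AMP directly into IMP. Pnp then splits inosine into hypoxanthine, which Hprt salvages or Xdh oxidises to xanthine and urate. In fibroblasts and other stromal cells, CD73 is a well-known surface protein and a main source of extracellular adenosine.

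The libraries held 21234789 to 92752515 counts assigned to genes, with a median of 27943964. Palmitate 10 was the deepest, and no other library was above 35329711. Mitochondrial genes took 10.71 to 14.04% of the counts. The label as fibroblasts was checked against markers: 10 of 10 fibroblast markers had more than 3 counts in every library, with a summed level of 46375 to 57848 CPM, the counts of a gene scaled to a common library size. Lum was the lowest of the 10, with condition means of 1.12 to 1.91 CPM, near the leukocyte marker Csf1r at 1.25 to 1.82 CPM. The summed level was 0.164 to 0.760 CPM for 6 epithelial markers (0 of 6 above 3 counts in every library), 2.62 to 4.41 CPM for 8 leukocyte markers (3 of 8), 1.43 to 2.29 CPM for 5 endothelial markers (2 of 5) and 65.7 to 113 CPM for 5 mural markers (3 of 5). Mural markers summed to 76.9 to 89.9 CPM in BSA, 88.8 to 113 CPM in IL-1β, 65.7 to 79.4 CPM in palmitate and 69.9 to 84.2 CPM in palmitate + IL-1β, and their part in the results was not tested. In such bulk RNA, fewer cells with a transcript and less of it per cell cannot be told apart.

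Levels below are CPM after scaling for library composition. Before that scaling, 3 counts corresponded to 0.0323 to 0.141 CPM. Fold changes, their standard errors (SE) and adjusted p-values came from quasi-likelihood tests in edgeR, with p-values adjusted by Benjamini and Hochberg's method over all 16306 genes, and a gene was called at an adjusted p under 0.05. The 3 comparisons with BSA share its 4 libraries and are not independent of each other. Under palmitate 7 of the 10 genes were called, 5 higher and 2 lower, where 37.3% of all tested genes were called (19.8% higher, 17.5% lower). With IL-1β 4 were called, 2 higher and 2 lower, where the share over all genes was 15.1% (10.1% higher, 4.97% lower). With palmitate + IL-1β 8 were called, 5 higher and 3 lower, against 47.3% of all genes (24.8% higher, 22.5% lower). The libraries of treatment and BSA did not overlap for 7, 4 and 7 of the 10 genes in these comparisons, and for 36%, 17.6% and 41.5% of all tested genes. The median log2 fold change of the 10 genes was 0.13, -0.011 and 0.11 in these comparisons. Over all tested genes it was -0.0030, -0.0049 and 0.0017. Among all genes called, the higher share was 53.1%, 67.1% and 52.4% in this order, and 37.1%, 43.5% and 38.7% when libraries were scaled by their upper quartile.

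**Figure D1:**
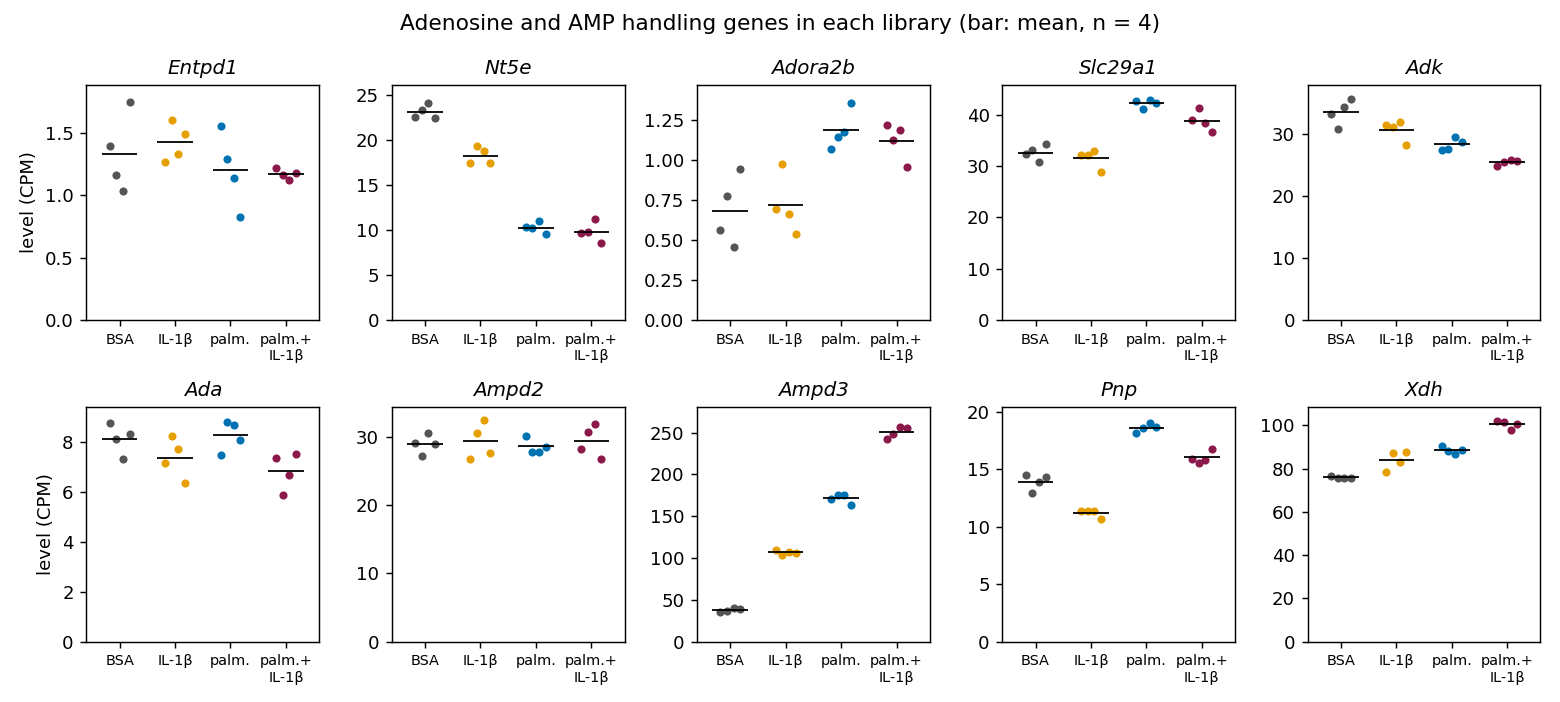
Level in CPM (y axis, from 0, a scale for each gene) of the 10 genes in each library, grouped by condition on the x axis (palm., palmitate). Points are libraries and bars are means of 4. Ampd3 steps up from 38.1 to 251 CPM over the 4 conditions without overlap, while Nt5e drops from 23.2 CPM in BSA to 10.3 and 9.84 CPM in both palmitate conditions.

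Entpd1 (chromosome 19, 40600810 to 40731585, plus strand, GRCm39) opens the extracellular route and was low in these cells. Its level was 1.39, 1.16, 1.03 and 1.75 CPM in BSA, 1.27, 1.60, 1.33 and 1.49 CPM in IL-1β, 1.55, 1.29, 1.14 and 0.822 CPM in palmitate, and 1.22, 1.16, 1.13 and 1.18 CPM in palmitate + IL-1β. Each library held 20 to 117 counts, and the treated libraries overlapped those of BSA throughout. The log2 fold changes against BSA were 0.09 (SE 0.21, adjusted p = 0.831) with IL-1β, -0.15 (SE 0.20, adjusted p = 0.623) with palmitate and -0.19 (SE 0.21, adjusted p = 0.478) with both. With SEs of this size, changes of the magnitude seen for Adk or Slc29a1 would not have been detectable for Entpd1 at this depth.

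Nt5e (chromosome 9, 88209089 to 88254146, plus strand) carries out the next step, from AMP to adenosine. It was read at 22.6, 23.4, 24.1 and 22.5 CPM in the BSA libraries. IL-1β libraries held 17.4, 19.3, 18.8 and 17.5 CPM, palmitate libraries 10.3, 10.2, 11.0 and 9.57 CPM, and palmitate + IL-1β libraries 9.72, 9.80, 11.3 and 8.58 CPM. All treated libraries lay below all BSA libraries, and the palmitate libraries also lay below all IL-1β libraries. Nt5e fell by 0.34 on the log2 scale with IL-1β (SE 0.07, adjusted p = 0.00047) and by 1.17 with palmitate (SE 0.07, adjusted p = 6e-15), to 0.444 of the BSA level. With both agents the log2 fold change against BSA was -1.23 (SE 0.07, adjusted p = 1.4e-15).

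Adding IL-1β to palmitate left Nt5e at a log2 difference of -0.06 (SE 0.08, adjusted p = 0.717), and the libraries of the palmitate conditions overlapped. Adding palmitate to IL-1β lowered it by 0.89 (log2 fold change -0.89, SE 0.07, adjusted p = 1.3e-11). The interaction, which is the log2 effect of IL-1β in palmitate minus its effect in BSA, was 0.28 (SE 0.10, adjusted p = 0.224) and was not called. The order of levels was therefore BSA, IL-1β, then the palmitate conditions, which did not differ beyond their spread.

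The 5 tested genes below followed Nt5e most closely over the 16 libraries, by Pearson correlation of log2 CPM, given as a description because libraries of a condition move together. They were Megf6 (r = 0.992), St8sia2 (r = 0.990), Mboat2 (r = 0.987), Adamts9 (r = 0.981) and Nudt4 (r = 0.981). Megf6 went from a mean of 18.9 CPM in BSA to 15.4 CPM under IL-1β, to 8.02 CPM under palmitate and to 7.80 CPM under both. Among the other 9 genes of the pathway, Adk was the closest (r = 0.871) and Ampd3 the most opposite (r = -0.924).

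Adora2b (chromosome 11, 62139804 to 62157279, plus strand) encodes the A2B receptor, the low-affinity adenosine receptor coupled to cyclic AMP. Its level was 0.562, 0.775, 0.458 and 0.944 CPM in BSA and 0.696, 0.976, 0.665 and 0.539 CPM in IL-1β. In palmitate it was 1.07, 1.15, 1.18 and 1.36 CPM and in palmitate + IL-1β 1.22, 1.13, 1.19 and 0.958 CPM. Both palmitate conditions lay above every BSA library, although palmitate + IL-1β 16 did so narrowly. The counts were 12 to 104 a library. Adora2b rose by 0.78 on the log2 scale with palmitate (SE 0.24, adjusted p = 0.00873) and by 0.71 with both agents (SE 0.24, adjusted p = 0.0143). The value with IL-1β alone was 0.07 (SE 0.26, adjusted p = 0.903).

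The call for Adora2b under both agents was lost without BSA 1 (adjusted p = 0.0603) or BSA 3 (adjusted p = 0.0579) and with no filter on low counts (adjusted p = 0.0547). Other adenosine receptors were near or under the limit of these libraries. Adora1 held 4 to 16 counts a library and was not called in any comparison with BSA. Adora2a held 0 to 4 counts and Adora3 0 to 1, and neither had enough counts to be tested, so no change of theirs was detectable at this depth.

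Slc29a1 (chromosome 17, 45896125 to 45910733, minus strand), the main equilibrative nucleoside transporter of the plasma membrane, was read at 32.3, 33.1, 30.7 and 34.2 CPM in BSA and at 32.1, 32.1, 32.9 and 28.8 CPM in IL-1β. Palmitate libraries held 42.6, 41.1, 42.9 and 42.4 CPM, and palmitate + IL-1β libraries 39.0, 41.3, 38.4 and 36.7 CPM. Every library with palmitate exceeded every library without it. Slc29a1 rose by 0.37 on the log2 scale with palmitate (SE 0.05, adjusted p = 5.3e-07) and by 0.25 with both (SE 0.05, adjusted p = 0.00014). With IL-1β alone the difference was -0.05 (SE 0.05, adjusted p = 0.611). Of 6 further nucleoside transporters only Slc29a2 and Slc29a3 were testable. Slc29a3, the lysosomal transporter, was called with IL-1β (47.1 ± 1.88 CPM against 42.1 ± 2.40 CPM in BSA, SD, n = 4, log2 fold change 0.16, adjusted p = 0.0397) and not with palmitate (-0.011, adjusted p = 0.897). Slc29a2 was at 0.641 ± 0.0470 CPM in BSA and 1.04 ± 0.243 CPM in IL-1β (SD, n = 4), a difference that was not called (adjusted p = 0.0541).

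Adk (chromosome 14, 21102618 to 21499916, plus strand), which recaptures adenosine as AMP, was read at 33.2, 30.8, 34.3 and 35.5 CPM in BSA and 31.4, 31.1, 31.8 and 28.2 CPM in IL-1β. It was read at 27.4, 27.6, 29.5 and 28.7 CPM in palmitate and 24.7, 25.5, 25.8 and 25.7 CPM in palmitate + IL-1β. Libraries with palmitate all lay below those of BSA, while the IL-1β libraries overlapped them. Adk fell by 0.24 on the log2 scale with palmitate (SE 0.05, adjusted p = 0.00046) and by 0.40 with both (SE 0.05, adjusted p = 2.7e-07). The IL-1β value was -0.12 (SE 0.05, adjusted p = 0.122), and it passed the threshold under upper-quartile scaling (-0.17, adjusted p = 0.0266).

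Ada (chromosome 2, 163565705 to 163592159, minus strand), which deaminates adenosine to inosine, was at 8.76, 8.14, 7.32 and 8.35 CPM in BSA, 7.16, 8.28, 7.76 and 6.38 CPM in IL-1β, 7.48, 8.84, 8.70 and 8.09 CPM in palmitate and 7.37, 5.89, 6.69 and 7.55 CPM in palmitate + IL-1β. The ranges overlapped in every comparison. Ada was called lower with both agents (log2 fold change -0.25, SE 0.10, adjusted p = 0.0344), but not with palmitate (0.03, SE 0.09, adjusted p = 0.813) or IL-1β (-0.14, SE 0.10, adjusted p = 0.381). The call was lost on leaving out BSA 1, BSA 4, palmitate + IL-1β 14 or palmitate + IL-1β 15, with adjusted p of 0.0879, 0.0703, 0.127 and 0.0728. An exon stretch of 1069 bases of Ada lies opposite exons of Pkig, which was called lower with palmitate (-0.30, adjusted p = 0.0125) and with both (-0.46, adjusted p = 0.000252), and the part of those reads in the Ada value was not tested.

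The AMP deaminases among the 10 genes were Ampd2 and Ampd3. Ampd2 (chromosome 3, 107981373 to 107994224, minus strand) was at 29.1, 27.2, 30.5 and 28.9 CPM in BSA, 26.8, 30.5, 32.5 and 27.7 CPM in IL-1β, 30.2, 27.8, 27.8 and 28.6 CPM in palmitate and 28.2, 30.7, 31.9 and 26.7 CPM in palmitate + IL-1β. All 4 conditions overlapped. Its log2 fold changes against BSA were 0.03, -0.02 and 0.02 for IL-1β, palmitate and both, each with an SE of 0.06 and adjusted p of 0.833, 0.843 and 0.782.

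Ampd3 (chromosome 7, 110366387 to 110411617, plus strand), the isoform best known from red blood cells, was at 35.6, 37.0, 40.2 and 39.5 CPM in BSA. IL-1β libraries held 109, 104, 107 and 106 CPM, palmitate libraries 171, 176, 176 and 164 CPM, and palmitate + IL-1β libraries 242, 248, 256 and 255 CPM. No library of any condition overlapped another condition. Ampd3 rose by 1.49 on the log2 scale with IL-1β (SE 0.05, adjusted p = 8.1e-22), by 2.17 with palmitate (SE 0.05, adjusted p = 6.5e-27) and by 2.72 with both (SE 0.05, adjusted p = 1.8e-29). In folds these were 2.80, 4.51 and 6.59 times the BSA level. By p-value Ampd3 ranked 7, 13 and 8 among all tested genes in these comparisons.

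Both agents together also exceeded each alone for Ampd3, by 0.55 over palmitate (SE 0.04, adjusted p = 2.8e-11) and by 1.23 over IL-1β (SE 0.04, adjusted p = 1e-20). It was the 1 gene of the 10 with a called interaction, at -0.94 (SE 0.06, adjusted p = 8.1e-13), where 1.99% of all genes were called (0.159% above and 1.83% below 0). The log2 step from IL-1β was thus smaller on palmitate than on BSA. On the linear scale IL-1β added 68.6 CPM, palmitate 133 CPM and both 213 CPM to the BSA mean, against 202 CPM for the sum of the single increments, a difference of 10.5 CPM (SE 4.65 from the 4 group SDs, not tested).

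Exons of Ampd3 lie opposite 1894 exonic bases of B430319F04Rik and 195 of Rnf141. B430319F04Rik held 1 to 24 counts a library and Rnf141 was at 33.8 ± 2.48 CPM in BSA and 35.7 ± 1.44 CPM in palmitate (SD, n = 4, adjusted p = 0.268). The deposited counts were made by strand.

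Because CPM does not allow for gene length, isoforms were compared as CPM per kilobase of merged exons (RPKM). Ampd3 made up 47.8 ± 1.28% of the summed RPKM of Ampd2 and Ampd3 in BSA, 71.7 ± 2.00% with IL-1β, 80.6 ± 0.940% with palmitate and 85.6 ± 0.967% with both (SD, n = 4). The isoforms were thus near parity in BSA, and Ampd3 led in each treated condition. Among the 10 genes in BSA, Xdh had the highest level per length (5.90 RPKM) and Entpd1 the lowest (0.187 RPKM), also when the longest transcript was used as length.

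**Figure D2:**
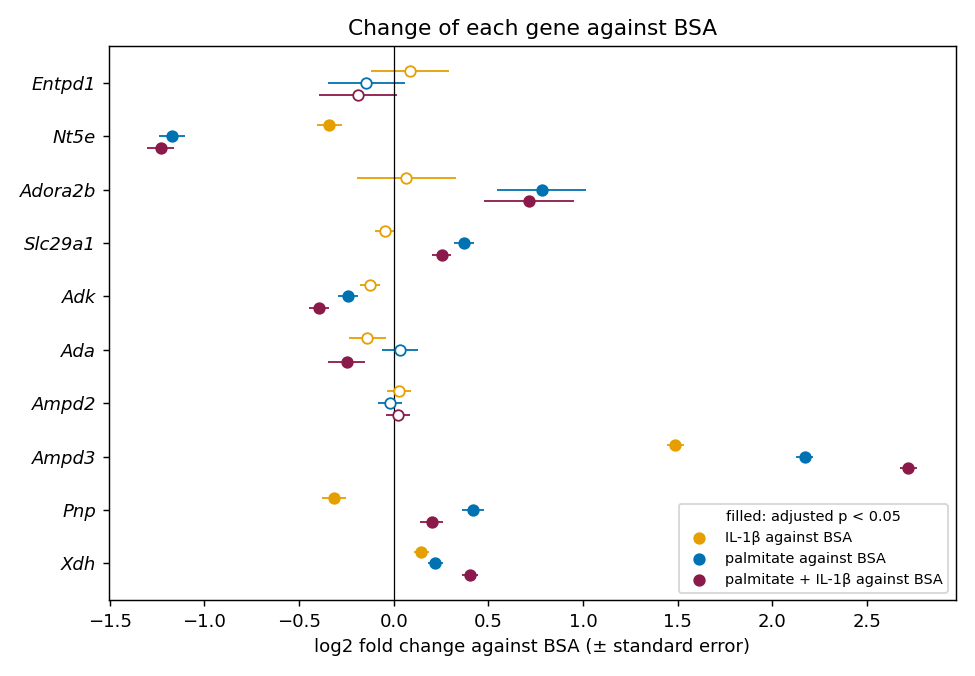
Log2 fold change against BSA (x axis) for the 10 genes (y axis), 4 libraries per condition. Bars are standard errors from the 1 edgeR fit of all 16 libraries. Filled points passed the adjusted p threshold of 0.05. Ampd3 lies at 1.49, 2.17 and 2.72 and Nt5e at -0.34, -1.17 and -1.23 for IL-1β, palmitate and both.

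IL-1β signals through NF-κB, and a loose form of the κB motif, GGGA followed by any 4 bases and CC, was looked for on both strands in the 250 bases before each RefSeq start site of the 10 genes (promoter table of GRCm38.p6, matched to GRCm39 by sequence). Of the 10 genes 9 were in that table, with 21 start sites, and 4 genes held the letters in 6 windows. Over all 32536 windows the share was 17.7%, so the letters are common and a match is a description, not a binding site. Other short motifs were also looked for in these windows and are not described here. The stretches for Ampd3, Nt5e and Ada are shown because Ampd3 and Nt5e moved the most and Ada acts on the adenosine that Nt5e makes, and each is given 5′ to 3′ on the gene's strand with the matching letters in capitals.
Ampd3: tcgttttttgGGGAAAGTCCtggttgggag
Nt5e: ggaagaggcgGGTCTGTCCCcgccccgccc
Ada: gggctcacctGGGAGCTTCCtagggtgtag
They lie at chr7:110367622-110367651, chr9:88209619-88209648 and chr2:163592277-163592306 of GRCm39. The Ampd3 and Ada matches read forward, and the Nt5e match reads on the opposite strand. The Ampd3 and Nt5e stretches lie inside the GENCODE bounds of their genes, downstream of an earlier annotated start. The other gene with the letters, Slc29a1, held them before 3 of its start sites. Ampd3, which rose with IL-1β, and Nt5e, which fell, both held a match. Ada and Slc29a1, which were not called with IL-1β, held matches too. Pnp, which fell with IL-1β, held no match, and Xdh, which rose, was the gene without an entry. A link between match and response was not tested.

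Pnp (chromosome 14, 51168473 to 51190869, plus strand) splits inosine and guanosine into free base and ribose phosphate. It was read at 14.5, 13.0, 13.9 and 14.3 CPM in BSA, 11.3, 11.4, 11.4 and 10.7 CPM in IL-1β, 18.1, 18.6, 19.1 and 18.7 CPM in palmitate and 15.9, 15.6, 15.9 and 16.8 CPM in palmitate + IL-1β. The conditions formed 4 bands without overlap, with IL-1β lowest and palmitate highest. Pnp fell by 0.31 on the log2 scale with IL-1β (SE 0.06, adjusted p = 0.00064) and rose by 0.42 with palmitate (SE 0.06, adjusted p = 1e-06). With both it was 0.20 above BSA (SE 0.06, adjusted p = 0.00677) and 0.22 below palmitate (log2 fold change -0.22, SE 0.06, adjusted p = 0.0149). The interaction was 0.10 (SE 0.09, adjusted p = 0.785) and was not called. The call against BSA was lost under upper-quartile scaling (0.12, adjusted p = 0.0980), with no filter on low counts (0.17, adjusted p = 0.105) and without BSA 2 (0.15, adjusted p = 0.0552), and the call against palmitate without palmitate 11 (adjusted p = 0.0524).

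Pnp has a near copy beside it, Pnp2, which shares 44.7% of the longest Pnp transcript at 95% identity or more. Of all 150-base stretches of that transcript, 20.3% occur also in Pnp2 or the overlapping model Gm49342, and reads from those stretches cannot be told apart. Pnp2 held 1 to 22 counts a library and Gm49342 held 0, beside the 258 to 1688 of Pnp. Whether reads shared between these genes were counted for any of them is not known here. These counts therefore do not measure the expression of the copies, and the Pnp level may miss shared reads.

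Xdh (chromosome 17, 74190203 to 74257399, minus strand), which oxidises hypoxanthine and xanthine, was at 76.5, 75.6, 75.9 and 75.8 CPM in BSA. IL-1β libraries held 78.3, 87.3, 83.2 and 87.5 CPM, palmitate libraries 90.5, 88.1, 86.8 and 88.5 CPM, and palmitate + IL-1β libraries 102, 102, 97.7 and 100.4 CPM. BSA libraries were the lowest and palmitate + IL-1β libraries the highest, each without overlap, while IL-1β and palmitate overlapped. Xdh rose by 0.15 on the log2 scale with IL-1β (SE 0.04, adjusted p = 0.0134), by 0.22 with palmitate (SE 0.04, adjusted p = 6e-05) and by 0.40 with both (SE 0.04, adjusted p = 8.3e-10). Both agents exceeded palmitate alone by 0.18 (SE 0.04, adjusted p = 0.00247). The IL-1β call was lost under upper-quartile scaling (0.10, adjusted p = 0.0861), with no filter (adjusted p = 0.0912) and without IL-1β 6 (adjusted p = 0.0557) or IL-1β 8 (adjusted p = 0.0528).

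Between the treated conditions, palmitate + IL-1β against IL-1β called 7 of the 10 genes, 5 higher and 2 lower, where 35% of all genes were called (18.9% higher, 16.1% lower), and its libraries did not overlap for 7, against 31.3% of all genes. The 5 higher were Ampd3 (1.23), Pnp (0.52), Slc29a1 (0.30), Xdh (0.26) and Adora2b (0.65, adjusted p = 0.0375), and the 2 lower were Nt5e (-0.89) and Adk (-0.27), on the log2 scale. This Adora2b call was lost with no filter (adjusted p = 0.121), with only the libraries compared (adjusted p = 0.0523) and without IL-1β 5, 7 or 8 or palmitate + IL-1β 13, 14 or 15 (adjusted p = 0.0654 to 0.110). Palmitate + IL-1β against palmitate called 3 (Ampd3 and Xdh higher, Pnp lower), where 9.81% of all genes were called (5.71% higher, 4.1% lower), and 4 genes did not overlap, against 16.7% of all genes. Palmitate against IL-1β called 5, where 31.6% of all genes were called (16.5% higher, 15.2% lower), and 5 did not overlap, against 31.1%. In this last comparison Ampd3 (0.68), Pnp (0.73), Slc29a1 (0.42) and Adora2b (0.72) were higher on the log2 scale with palmitate and Nt5e (-0.83) was lower, and Adk was not called (-0.12, adjusted p = 0.0980). The Adora2b call there (adjusted p = 0.0216) was lost without IL-1β 7, IL-1β 8 or palmitate 12 and with no filter, at adjusted p of 0.0623, 0.0762, 0.0552 and 0.0568.

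To weigh the steps against each other, the ratio of RPKM between genes was taken within each library, as a description with no test. Nt5e to the sum of Ampd2 and Ampd3 sets AMP dephosphorylation outside the cell against AMP deamination inside it. On the log2 scale this ratio was -1.94 ± 0.06 in BSA, -3.19 ± 0.07 in IL-1β, -4.53 ± 0.06 in palmitate and -5.06 ± 0.15 with both agents (SD, n = 4). The conditions did not overlap, and the ratio stood at 0.422, 0.166 and 0.115 of its BSA value. Nt5e was called lower and Ampd3 higher in each of these conditions. Counting Acp3, a membrane phosphatase that also acts on AMP, together with Nt5e put the ratio at 0.433, 0.276 and 0.181 of its BSA value, again without overlap with BSA, an alternative chosen after seeing the data. RNA ratios are not fluxes, since the proteins were not measured here and act on opposite sides of the membrane.

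The other ratios moved less. Ada to Adk, deamination against rephosphorylation of adenosine, was -0.93 ± 0.15 in BSA, -0.95 ± 0.11 in IL-1β, -0.67 ± 0.10 in palmitate and -0.79 ± 0.17 with both. Only palmitate stood clear of BSA, at 1.20 times its ratio, by a narrow gap (lowest palmitate library -0.77, highest BSA library -0.81). Of the genes in this ratio only Adk was called with palmitate, lower, and Ada was not. Slc29a1 to Nt5e, transport against production, was 0.67 ± 0.10 in BSA and 2.22 ± 0.08 in palmitate, or 2.93 times as high, and 2.17 ± 0.15 with both. On the log2 scale Nt5e fell more than Slc29a1 rose in both palmitate conditions. Entpd1 to Nt5e was -3.85 ± 0.38 in BSA and -2.83 ± 0.35 in palmitate, a ratio 2.02 times that in BSA, and of its genes only Nt5e was called.

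Downstream, Xdh to Pnp was 0.73 ± 0.07 in BSA, 1.19 ± 0.10 in IL-1β, 0.53 ± 0.05 in palmitate and 0.93 ± 0.06 with both agents (SD, n = 4). It lay above BSA in both IL-1β conditions and below it in palmitate alone, without overlap. Xdh to Hprt, oxidation against salvage of hypoxanthine, was -0.42 ± 0.07, -0.39 ± 0.08, -0.45 ± 0.04 and -0.34 ± 0.08 in the same order, and all conditions overlapped BSA. Hprt itself was called higher with palmitate (log2 fold change 0.25, adjusted p = 2.4e-05).

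**Figure D3:**
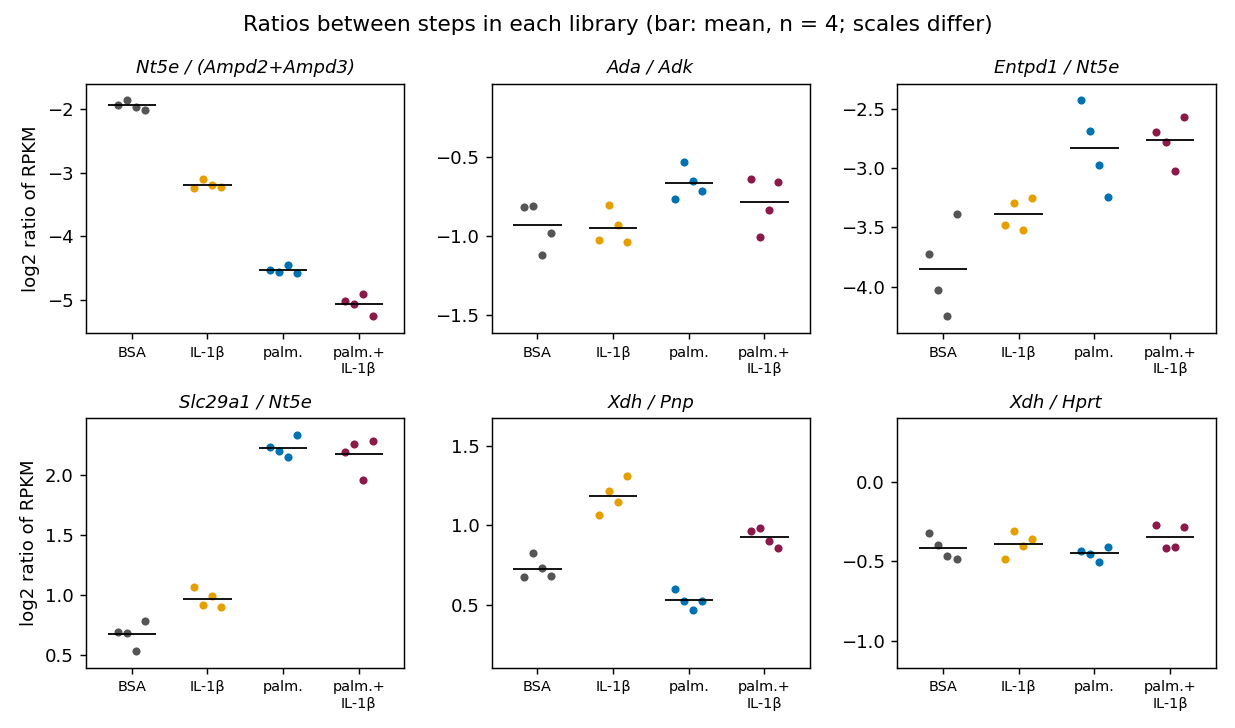
Log2 ratio of RPKM between genes (y axis, a scale for each ratio) in each library, by condition on the x axis (palm., palmitate). Points are libraries and bars are means of 4. Nt5e / (Ampd2+Ampd3) steps down from -1.94 in BSA to -5.06 with both agents, Xdh / Pnp goes in opposite directions in IL-1β and palmitate, and Xdh / Hprt stays between -0.34 and -0.45 on average.

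The 10 genes sit among 90 others of purine handling, listed by role, of which 65 were testable. Under palmitate 24 of the 65 were called higher and 18 lower, against 19.8% and 17.5% of all tested genes, with a median log2 fold change of 0.047. With IL-1β 10 were higher and 3 lower (median 0.0012), against 10.1% and 4.97% of all genes, and with both 29 were higher and 17 lower (median 0.050), against 24.8% and 22.5%. The lists below hold few genes each, and nothing particular to a list was tested.

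Ectonucleotidases other than Entpd1 and Nt5e were called in both directions under palmitate, 2 higher and 3 lower of 9 tested against 37.3% of all genes called, and 0 of 9 with IL-1β against 15.1% of all genes, where edgeR gave an unadjusted p under 0.05 to 2 and DESeq2 called 0. Acp3, an acid phosphatase whose membrane form also releases adenosine from AMP, was at 1.42, 1.29, 1.18 and 1.26 CPM in BSA and 7.72, 6.44, 5.32 and 7.11 CPM in palmitate. Every palmitate library was above every BSA library. Acp3 rose by 2.35 on the log2 scale with palmitate (SE 0.16, adjusted p = 1.8e-13) and by 2.09 with both (SE 0.16, adjusted p = 3.2e-12), with 0.20 in IL-1β (adjusted p = 0.578). Per length, Acp3 averaged 0.906 RPKM in palmitate and Nt5e 1.17 RPKM, against 0.176 and 2.64 RPKM in BSA. Enpp2 (autotaxin), which makes lysophosphatidic acid, rose by 1.67 with palmitate (1.55 to 4.97 CPM, adjusted p = 4.5e-11). Enpp3, a surface nucleotide pyrophosphatase, was lower (log2 fold change -0.80, adjusted p = 0.0273) with overlapping libraries.

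Of 5 cytosolic nucleotidases 1 was called higher and 1 lower under palmitate, a share near the 37.3% of all genes called. Nt5c2, which acts mainly on IMP and GMP, went from 40.5 ± 1.39 to 31.9 ± 0.805 CPM (SD, n = 4, log2 fold change -0.34, adjusted p = 1.4e-06). Nt5c, a deoxyribonucleotidase, was 0.16 higher (adjusted p = 0.0316). With IL-1β edgeR and DESeq2 both called 0 of 5, where edgeR called 15.1% of all genes, and 0 had an unadjusted p under 0.05. With 5 genes, 0 calls cannot be told apart from that share.

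Adenylate kinases, which interconvert AMP, ADP and ATP, were called in both directions under palmitate, 2 of 7 higher and 3 lower, against 19.8% and 17.5% of all genes. Ak4 of the mitochondrial matrix was at 9.06, 8.59, 9.77 and 8.56 CPM in BSA and 25.1, 22.9, 24.3 and 24.2 CPM in palmitate. Palmitate libraries were all above those of BSA, and Ak4 rose by 1.42 on the log2 scale (SE 0.06, adjusted p = 3.3e-18). IL-1β alone raised it by 0.23 (adjusted p = 0.0186). Ak5, a cytosolic isoform, fell by 0.72 (adjusted p = 3.5e-10).

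AMPK, the kinase that reads the ratio of AMP to ATP, had 7 subunit genes tested. Under palmitate 1 was higher and 4 lower, against 19.8% and 17.5% of all genes. The lower ones included Prkab2 (25.5 ± 1.99 to 15.8 ± 0.742 CPM, SD, n = 4, log2 fold change -0.70, adjusted p = 7.9e-11) and Prkag3 (-1.91, adjusted p = 3.9e-05, at 7 to 33 counts a library). The catalytic subunit Prkaa2 was at 4.35, 3.94, 4.58 and 5.21 CPM in BSA and 7.32, 7.15, 7.19 and 9.57 CPM in IL-1β. With both agents it was at 10.6, 10.5, 12.9 and 10.8 CPM. These 3 conditions did not overlap. Prkaa2 rose by 0.79 with IL-1β (SE 0.11, adjusted p = 2.7e-06) and by 1.31 with both (SE 0.10, adjusted p = 4e-12), while palmitate alone gave 0.20 (SE 0.11, adjusted p = 0.173).

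Salvage genes rebuild nucleotides from free bases and nucleosides. Under palmitate 2 of 5 salvage genes were higher and 1 lower, against 19.8% and 17.5% of all genes. Mtap, which frees adenine from methylthioadenosine, rose by 0.65 on the log2 scale (52.9 ± 1.89 to 82.9 ± 3.55 CPM, SD, n = 4, adjusted p = 4.3e-13). Dck, a deoxynucleoside kinase, fell by 0.21 (adjusted p = 0.0136), and Aprt, which salvages adenine, gave -0.0067 (adjusted p = 0.948). Gda, which deaminates guanine, rose by 0.84 (1.42 to 2.50 CPM, adjusted p = 0.00127). Aox1, an aldehyde oxidase related to Xdh, rose by 0.48 (adjusted p = 9.1e-09) and by 0.76 with both agents (adjusted p = 1.7e-13). Of 3 genes of the adenosylhomocysteine hydrolase family, Ahcyl2 was called with palmitate, lower by 0.32 (log2 fold change -0.32, adjusted p = 9e-06). That share was near the 37.3% of all genes called.

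**Figure D4:**
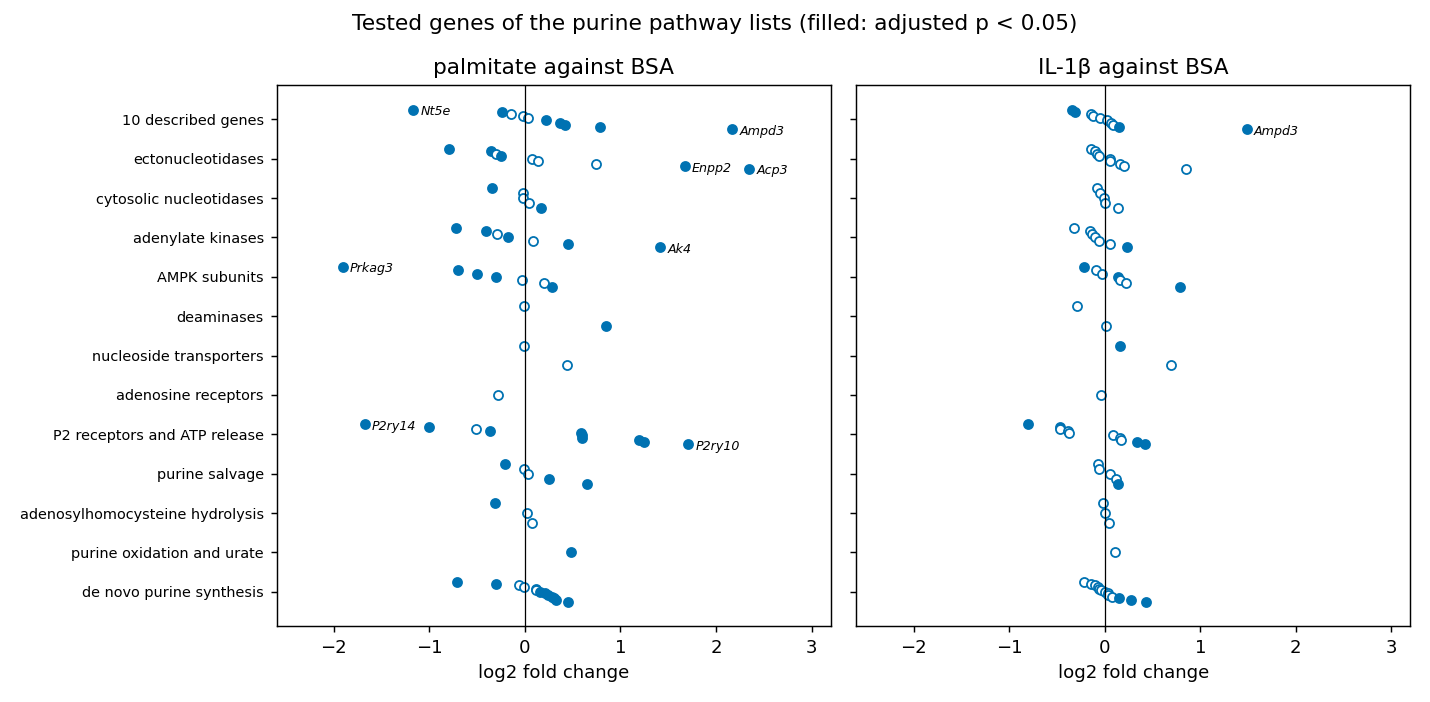
Log2 fold change (x axis) of the tested genes in each purine list (y axis), for palmitate (left) and IL-1β (right) against BSA with 4 libraries a condition. Each point is a gene, filled where the adjusted p passed 0.05. Under palmitate Acp3 (2.35) and Ampd3 (2.17) lie farthest to the right and Prkag3 (-1.91) farthest to the left, and under IL-1β Ampd3 (1.49) stands apart.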

How the data were processed

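Bulk RNA-seq was made from 16 mGF libraries. Per the labels a stranded total RNA kit was used, whereas the methods describe oligo(dT) priming, and which was used was not settled. By the authors' account, Trimmomatic 0.39 was used for trimming, STAR 2.7.10a for alignment (build GRCm39) and HTSeq 2.0.9 for counting. The deposited values are raw counts per gene, made by strand. Rows of the table that name no gene held 18.28 to 21.42% of each column and were left out. With R 4.3.3, genes were kept by filterByExpr (minimum count 10), scaled by TMM and tested with edgeR 4.0.16 (glmQLFit with robust estimation and glmQLFTest) in 1 fit of all 16 libraries, threshold 0.05. The fit assumes that libraries are independent. Before TMM scaling, the deepest library had a floor of 0.0323 CPM and the shallowest 0.141 CPM. Groups and library numbers came from the sample labels. Exon lengths and positions came from GENCODE vM39. Alternatives were DESeq2 1.42.0, its size factors in edgeR, upper-quartile scaling, no filter, at least 10 counts in every library, no mitochondrial genes, only the libraries compared, each library left out, and the longest transcript as length. The steps were tested on counts simulated for palmitate against BSA. Of genes given a log2 change of 0.5, 22 of 34 were called, and of those given -0.5, 14 of 25. Of 15839 genes given no change, 8 were called. Genes given no change were most of the 16034 simulated, whereas 37.3% of all tested genes were called with palmitate against BSA. Adjustment is stricter where few genes change, so these rates need not hold for the real data. Changes of 0.5 or less could still go uncalled. The 10 genes and all lists were chosen with earlier results of these data known. All 10 genes were named, with up to 3 called genes of each list by absolute log2 fold change with palmitate or IL-1β, 8 genes of interest (Adora1, Adora2a, Adora3, Slc29a2, Pnp2, Hprt, Aprt, Nt5c2) and the 5 genes closest to Nt5e. One item that this rule names is not reported here.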

Additional observations from a re-analysis of the deposited data

Results flagged for a closer look

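The response of Ampd3 to IL-1β differed between BSA and palmitate, by an interaction of -0.94 on the log2 scale (edgeR, adjusted p = 8.1e-13), from 38.1 to 107 CPM without palmitate and from 171 to 251 CPM with it.

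In 181 groups of 4 libraries examined, 11 had 1 library far from the other 3 by Dixon's criterion at the 95% level, where chance gives about 1 in 20 groups. Among the 10 genes this held for Pnp in IL-1β 8 at 10.7 CPM. In the same library Prkaa2 stood high at 9.57 CPM and Adss1 low at 8.24 CPM. Prkaa2 stood high in palmitate + IL-1β 15 at 12.9 CPM and Slc29a3 low in palmitate + IL-1β 16 at 37.1 CPM. Dck was high in palmitate 11 at 15.3 CPM, and Adora1 in IL-1β 5 at 0.532 CPM. The remaining values rest on at most 4 counts: Adora2a in BSA 3 (0.153 CPM), IL-1β 5 (0.0818 CPM) and palmitate 10 (0.0220 CPM), and Adora3 in palmitate + IL-1β 13 (0.0283 CPM).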

How the results depend on the processing

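No paired analysis was possible because the library numbers 1 to 16 are shared by no 2 conditions. No called gene of the 10 changed sign under any alternative. Over the 10 genes and 7 comparisons, other normalization, filters, tools and sample sets kept 463 results on the same side of the threshold, took 8 below it and 7 past it, and leaving out 1 library kept 618, took 19 below and 3 past it. The number called higher with IL-1β against BSA was 1 under upper-quartile scaling and with no filter, where Xdh was lost. With both agents against BSA 3 were higher with no filter. With both against palmitate the number lower was 2 with no filter, with at least 10 counts in every library and with DESeq2, and 3 with only the libraries compared. With palmitate against IL-1β 2 were lower under upper-quartile scaling. The cause was not tested.

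Leaving out 1 library gave 5 higher and 2 lower with palmitate against BSA, 1 to 2 higher and 2 lower with IL-1β, 4 to 5 higher and 2 to 3 lower with both, 4 to 5 higher and 2 lower with both against IL-1β, 2 higher and 0 to 2 lower with both against palmitate, 3 to 4 higher and 1 to 2 lower with palmitate against IL-1β, and 0 higher and 1 lower for the interaction. With the longest transcript as length, the log2 difference from BSA of the Nt5e to Ampd2 and Ampd3 ratio was -1.34, -2.72 and -3.27 for IL-1β, palmitate and both, against -1.25, -2.59 and -3.12. With Acp3 counted beside Nt5e, chosen after seeing the data, it was -1.21, -1.86 and -2.47. Depth limits Adora2b, Entpd1 and the other adenosine receptors, and the Adora2b difference of both agents against IL-1β lost its call in 8 alternatives.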

Other observations

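Receptors for extracellular nucleotides, which act before AMP and adenosine are formed, are a further group of the purine lists. Of 10 tested P2 receptor and ATP release genes, 6 were called higher and 3 lower with palmitate, against 19.8% and 17.5% of all tested genes, and 2 higher and 2 lower with IL-1β, against 10.1% and 4.97%. P2ry14, the receptor for UDP-glucose, was at 6.30, 7.33, 7.10 and 7.03 CPM in BSA, 3.52, 3.98, 4.18 and 4.18 CPM in IL-1β, 2.14, 2.27, 2.09 and 2.05 CPM in palmitate and 1.84, 1.32, 1.74 and 1.40 CPM in palmitate + IL-1β. These 4 conditions did not overlap. The log2 fold changes against BSA were -0.80, -1.68 and -2.12 (adjusted p = 2.8e-06, 2.7e-13 and 2.4e-15). P2ry6, the UDP receptor, rose by 1.24 with palmitate (0.550 to 1.31 CPM, adjusted p = 0.00021), and P2ry10 by 1.71 (0.308 to 1.07 CPM, adjusted p = 2.2e-05), both at few counts.

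De novo synthesis builds IMP from ribose phosphate and AMP from IMP. Of 13 tested genes 8 were called higher and 2 lower with palmitate, against 19.8% and 17.5% of all tested genes, and 3 were called higher with IL-1β, against 10.1%. Ppat, which commits the route, rose by 0.45 on the log2 scale with palmitate (adjusted p = 8.7e-06), by 0.43 with IL-1β (adjusted p = 9.7e-05) and by 0.80 with both (adjusted p = 9.9e-11). The adenylosuccinate synthases, which start the return from IMP to AMP, parted under palmitate. Adss1 fell by 0.71 (10.9 to 6.51 CPM, adjusted p = 6.1e-08) and Adss2 rose by 0.32 (93.0 to 116 CPM, adjusted p = 7.9e-07).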
